A study of Arabidopsis thaliana with 24 samples.

Results

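The 60 brightest named probes of wild type Arabidopsis thaliana were followed into the sut2 mutant. Transcript levels had been measured by array in total RNA of wild type plants and of the sut2 mutant, both of the Wassilevskija ecotype, in 12 columns per group numbered 1 to 12. The labels describe the mutant as lacking a plasma membrane protein that transports or senses sucrose. The sources used here state no tissue, age, growth condition or allele, nor whether the columns came from separate plants, so the p-values measure only the spread between columns, which may be technical. No probe with a single gene name stood for SUT2, and 0 of 13 fixed markers of leaf, phloem, root, seed and flower had one, so neither the loss of SUT2 nor the tissue could be checked. Whether columns of both groups shared arrays, and with which dye, is not stated either, so genotype and dye may not be separable.

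Of 3439 probes, 692 were annotated with 1 gene. The selection left out 20 of these by name, mostly photosystem, Calvin cycle, plastid ribosome and fibrillin genes, and ranked the other 672 by the median deposited intensity over the 12 wild type columns. The first 60 are described here. Intensities are on a linear scale with a column mean near 1 and a shared ceiling of 100. The wild type medians of the 60 ran from 79.4 down to 1.52, with a middle value of 2.97, against a median of 0.36 over all probes. They carried 10.04% to 13.2% of the summed intensity of a wild type column (median 10.9%) and 11.04% to 13.5% of that of a sut2 column (median 12.0%). Among all probes the dimmest of the 60 was at rank 385, so 318 probes with several gene names or none, and 7 left out by name, were as bright.

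Brightness on an array rises with the amount of a transcript, but also with the length and base composition of the spotted probe and with related transcripts that bind to it. The order of the 60 is therefore an order of probes and not of transcript abundance, and changes are compared below only between wild type and mutant for the same probe, while ranks and shares of intensity describe the probes. Sucrose is the main form in which leaves export carbon, and transporters of the plasma membrane load it into the phloem and take it up in sink tissues. SUT2 is a member of this transporter family with an unusually long cytoplasmic loop, for which a role in sensing sucrose was proposed. Cells also use sucrose as a signal that adjusts the transcripts of photosynthesis, storage and stress genes.

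The brightest transcripts of wild type were largely the brightest of the mutant. Of the 60, 51 (85%) were also among the 60 brightest named probes by the sut2 median, as were 16 of the first 20 within the first 20. The median deposited intensity was higher in sut2 for 34 members and lower for 26, whereas it was higher for only 30.6% of all probes. Of the 60, 48 lay within 1.5-fold of wild type, a share that was not taken over all probes. For comparison, the list chosen on wild type numbers 1 to 6 shared 45 of its 60 probes with the list chosen on wild type numbers 7 to 12. Within numbers 1 to 6 the wild type and sut2 lists shared 53, and within numbers 7 to 12 they shared 47. The mutant columns therefore held nearly the same bright probes as wild type, and the 2 wild type lists from different numbers shared the fewest.

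**Figure D1:**
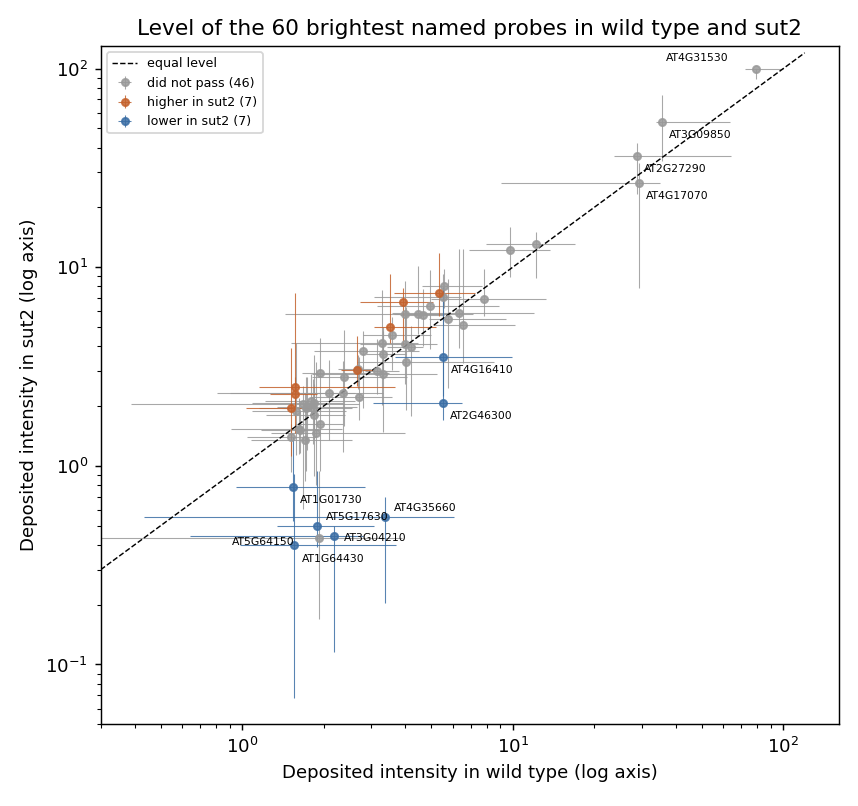
Deposited intensity (column mean near 1, log axes) of the 60 brightest named probes, wild type on the x axis and sut2 on the y axis. Points are medians of 12 columns and bars run from the lowest to the highest column; the wild type bar of AT5G64150 runs beyond the left edge to 0.0037. Most probes lie near the dashed line of equal level, while 5 with a wild type median between 1.56 and 3.36 lie at a sut2 median of 0.397 to 0.555.

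Differences were tested on log2 values after quantile normalization with limma across all 3439 probes, sut2 minus wild type, and the threshold was a Benjamini-Hochberg adjusted p of 0.05. Intensities and medians of single probes below are as deposited. Log2 changes are differences of means after normalization unless another scaling is named, so their direction can differ from that of the medians. Of the 60, 7 rose and 7 fell in sut2, or 11.7% each way. Over all probes 18.8% were called higher and 15.9% lower, both above the shares among the 60 in this fit. With the replicate number as a block, 20% of the 60 were higher and 20% lower, against 24% and 18.9% of all probes, so the share of falls was not below that of the table in every fit. The median log2 change of the 60 was 0.05, against 0.10 over all probes and 0.12 over the other 612 ranked probes. The median log2 change was -1.59 among the 7 falls and 0.49 among the 7 rises. Because the wild type values chose the members and also enter the difference, the choice favours falls, and the 2 counts are a description. When the 60 brightest were instead chosen on all 24 columns, which kept 54 of them, 13 rose and 2 fell. When they were chosen on the sut2 columns, which favours rises in the same way, 16 rose and 2 fell.

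Columns with consecutive numbers gave nearly the same values for these probes. The median absolute log2 difference over the 60 was 0.085 to 0.112 in the 6 pairs of consecutive wild type columns (1 and 2, 3 and 4, and so on) and 0.155 to 0.709 between the other 60 wild type pairs. In sut2 it was 0.079 to 0.104 in consecutive columns and 0.221 to 0.848 in the others. The labels do not say whether consecutive columns repeat 1 sample, so each call is given also with consecutive numbers averaged, 6 sets a group. In that fit 1 member (1.67%) rose and 5 (8.33%) fell, all 6 among the 14, while 5.38% of all probes were called higher and 7.68% lower. With these sets also paired between the groups by number, 2 rose and 6 fell, against 10.3% and 11.8% of all probes.

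The 5 members that fell in both fits were the resistance-type protein AT3G04210, the sugar phosphate transporter AT5G17630, the late embryogenesis abundant protein AT2G46300, and AT4G35660 and AT1G64430, for which no role is stated. In bulk RNA, fewer cells of a type and less RNA per cell cannot be told apart. AT5G17630 encodes XPT, the carrier of the plastid envelope that exchanges xylulose 5-phosphate and triose phosphates for phosphate. In wild type its intensity was 1.35 at the lowest, 1.89 at the median and 3.06 at the highest, and in sut2 0.389, 0.499 and 0.942. Every sut2 column was below every wild type column. The log2 change was -1.59 ± 0.16 (SE, n = 12 columns; limma adjusted p = 1.42e-07), or ± 0.24 with an adjusted p of 0.0021 over the averaged sets, a fall to 3.01-fold below wild type. Numbers 1 to 6 gave -1.51 and numbers 7 to 12 gave -1.67, and the fall passed in all 15 alternatives tried. All of these use wild type columns that chose the list, so they are no independent support for this or the other falls.

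AT3G04210 encodes TN13, a TIR-domain protein with a nucleotide binding site, of the class that acts in pathogen recognition. Its wild type intensity ran from 0.64 over a median of 2.19 to 2.81, and its sut2 intensity from 0.116 over 0.445 to 0.5. The groups did not overlap, although wild type columns 7 and 8, at 0.92 and 0.64, lay well below the other wild type columns, and sut2 columns 7 and 8, at 0.116 and 0.17, were likewise the lowest of the mutant. Its log2 change was -2.12 ± 0.28 (SE), with an adjusted p of 5.48e-06, or 0.0058 averaged. Its rank among the named probes went from 37 in wild type to 175 in sut2. It passed in all 15 alternatives, which again use the wild type columns that chose the list.

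AT2G46300 encodes a hydroxyproline-rich protein of the late embryogenesis abundant family. Its intensity was 3.04 at the lowest, 5.53 at the median and 6.47 at the highest in wild type, and 1.71, 2.08 and 3.34 in sut2. Only the 2 lowest wild type columns, numbers 7 and 8 at 3.04 and 3.29, reached into the sut2 range. All 12 numbers were lower in sut2 by -1.23 ± 0.15 on the log2 scale (SE; adjusted p = 1.36e-06, and 0.0055 averaged). Its rank went from 13 in wild type to 41 in sut2.

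AT1G64430 ran from 0.985 over 1.56 to 3.70 in wild type and from 0.068 over 0.397 to 0.908 in sut2, without overlap. It changed by -1.82 ± 0.32 on the log2 scale (SE; adjusted p = 0.00016, and 0.013 averaged), and its rank went from 57 to 196, the lowest sut2 rank of the 60. AT4G35660 ran from 0.434 over 3.36 to 6.06 in wild type and from 0.203 over 0.555 to 0.698 in sut2. Wild type numbers 3 and 4, at 0.434 and 0.514, lay inside the sut2 range, whereas the other 10 wild type columns were at 2.67 or more. The change was -2.29 ± 0.41 (SE, adjusted p = 0.00017, 0.022 averaged), with 10 of 12 numbers lower, and it did not pass in numbers 1 to 6 alone (-1.96, adjusted p = 0.070).

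The other 2 falls, AT4G16410 and AT1G01730, have no stated role and did not pass with consecutive numbers averaged. AT4G16410 ran from 3.68 over 5.54 to 9.98 in wild type and from 2.24 over 3.53 to 7.90 in sut2. The ranges overlapped widely, and the log2 change of -0.80 ± 0.22 (SE, adjusted p = 0.0074) had an adjusted p of 0.10 when averaged. With each column centred on its median it was -0.10 (adjusted p = 0.72). AT1G01730 had medians of 1.54 and 0.781, with 12 of 12 numbers lower. It changed by -0.65 ± 0.20 (SE; adjusted p = 0.017, then 0.15 averaged and 0.027 averaged and paired).

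The member that rose in both fits was AT4G29890, which encodes a protein resembling choline monooxygenase, the enzyme that starts glycine betaine synthesis in spinach. Its intensity was 1.27 at the lowest, 1.56 at the median and 1.89 at the highest in wild type, and 1.93, 2.30 and 2.80 in sut2. This was the single member whose sut2 columns were all above the wild type columns, as at 0.32% of all probes. It rose by 0.63 ± 0.10 on the log2 scale (SE; adjusted p = 6.54e-05, and 0.026 averaged), a 1.55-fold rise. Numbers 1 to 6 gave 0.55 and numbers 7 to 12 gave 0.72. It passed in all 15 alternatives. In the other direction 3 members had every sut2 column below wild type (AT5G17630, AT3G04210 and AT1G64430), as at 5.5% of all probes.

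**Figure D2:**
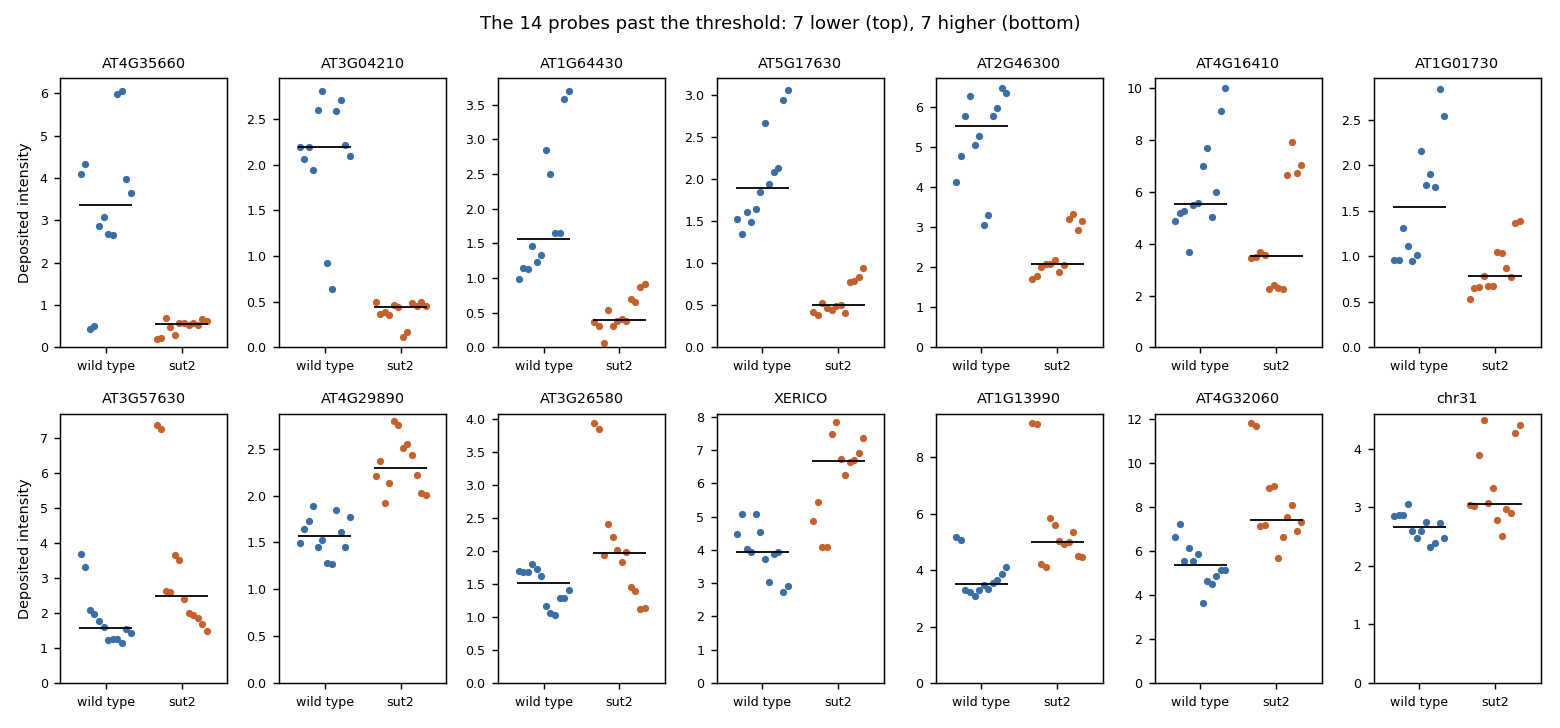
Deposited intensity (linear axis from 0, column mean near 1) of the 14 probes past the threshold in 24 columns, the 7 lower in sut2 on top and the 7 higher below. Each point is 1 column, from number 1 on the left to number 12 on the right of each group, and the line is the median; neighbouring points often form pairs, and AT4G29890 is the rise without overlap.

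The 6 other rises passed in 24 columns and not over the averaged sets (adjusted p from 0.13 to 0.27). XERICO is a RING-H2 protein that raises abscisic acid levels when overexpressed. Its intensity ran from 2.73 over 3.93 to 5.09 in wild type and from 4.08 over 6.68 to 7.84 in sut2, a rise of 0.49 ± 0.14 on the log2 scale (SE; adjusted p = 0.0083, and 0.13 averaged). Numbers 1 to 6 gave 0.08 and numbers 7 to 12 gave 0.90. In sut2 the columns 1 to 4 were the lowest, at 4.08 to 5.43, and the other 8 were at 6.25 or more, above every wild type column.

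AT3G57630 encodes an exostosin-family arabinosyltransferase that acts on extensins of the cell wall. Its wild type intensity ran from 1.15 over 1.57 to 3.67 and its sut2 intensity from 1.47 over 2.49 to 7.38. Columns 1 and 2 were the highest of both groups, at 3.67 and 3.30 in wild type and 7.38 and 7.25 in sut2. All 12 numbers were higher in sut2, by 0.75 ± 0.26 on the log2 scale (SE; adjusted p = 0.030, and 0.19 averaged). Pairing the averaged sets gave an adjusted p of 0.017, and leaving out the normalization one of 0.0503 (0.68 log2).

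AT4G32060 encodes MICU, the calcium-binding regulator of calcium uptake by mitochondria. It ran from 3.63 over 5.33 to 7.23 in wild type and from 5.66 over 7.42 to 11.8 in sut2, and was higher in 12 of 12 numbers (0.37 ± 0.14 log2, SE, adjusted p = 0.037, 0.22 averaged). AT3G26580, a tetratricopeptide repeat protein, was also higher in all 12 numbers (0.56 ± 0.20, adjusted p = 0.029, 0.19 averaged), with medians of 1.52 and 1.96. Its call was lost without normalization (0.45, adjusted p = 0.074). The chromatin remodeller chr31, known as CLASSY3 in RNA-directed DNA methylation, had medians of 2.66 and 3.05 and the smallest called change, 0.27 ± 0.10 (adjusted p = 0.042, 0.27 averaged), and passed in 8 of 15 alternatives. AT1G13990, with no stated role, had medians of 3.52 and 5.01 (0.38 ± 0.13, adjusted p = 0.033, 0.23 averaged).

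Lists chosen on some wild type columns were also read in the columns that had no part in the choice. The 60 brightest named probes of wild type numbers 1 to 6, of which 53 are among the 60 described here, had 13 rises and 7 falls in numbers 7 to 12, where 16.6% of all probes were called higher and 15.4% lower. The 60 brightest of wild type numbers 7 to 12, of which 52 are shared, had 4 rises and 12 falls in numbers 1 to 6, where 8.87% of all probes were called higher and 10.4% lower. Rises were the more frequent in one reading and falls in the other.

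**Figure D3:**
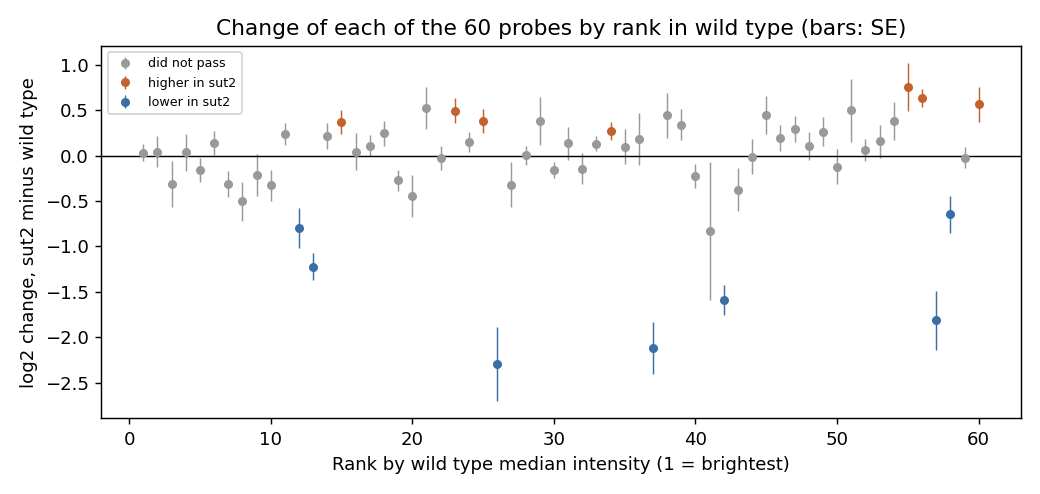
Log2 change (sut2 minus wild type, quantile-normalized, bars SE of the fit to 24 columns) of the 60 probes against their wild type rank. The 5 falls below -1 lie at ranks 13 to 57, and none of the first 11 ranks passed.

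Of the 10 brightest members none passed, too few to read against the 18.8% higher and 15.9% lower of all probes. For the first of the 10 the ceiling hides the size of any difference. This probe, AT4G31530, stands for a protein with an NAD(P)-binding Rossmann fold. It ran from 72.1 over 79.4 to the ceiling of 100 in wild type and from 88.6 to 100 in sut2, with the sut2 median at the ceiling. The ceiling was reached in 2 wild type and 8 sut2 columns, numbers 1 and 2 in wild type among them, so these values are lower bounds and a rise would be understated. The fitted log2 change was 0.03 (adjusted p = 0.81) with values kept at the ceiling, 0.25 with them left out (adjusted p = 0.19) and 0.24 without normalization (adjusted p = 0.023), and no size is read from these. It was the single member with a value at the ceiling, and no member had a value listed at 0.

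AT3G09850, a protein with a G-patch domain of the kind found in RNA-processing factors, ran from 33.8 over 35.7 to 63.4 in wild type and from 34.3 over 53.9 to 73.9 in sut2. Its fitted log2 change was 0.04 ± 0.17 (SE, limma adjusted p = 0.87), with 0.26 from numbers 1 to 6 and -0.18 from numbers 7 to 12. In wild type numbers 7 to 10 were at 57.3 to 63.4 and the other 8 at 33.8 to 39.0, and in sut2 numbers 3, 4 and 9 to 12 were above 60, so both groups held a low and a high set of columns. AT4G17070, a peptidyl-prolyl isomerase that helps proteins fold, had medians of 29.2 and 26.5, with column 1 the lowest of both groups (9.06 and 7.89). AT2G27290 had medians of 28.8 and 36.2. Neither passed, and their ranges overlapped between the groups.

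CCL, a transcript under clock control whose stability changes over the day, ran from 7.94 over 12.2 to 17.1 in wild type and from 8.80 over 13.1 to 15.0 in sut2 (-0.16 ± 0.13 log2, SE, adjusted p = 0.37). NdhS, also called CRR31, is the ferredoxin-binding subunit of the plastid NADH dehydrogenase-like complex, and had medians of 9.80 and 12.1 (0.13 ± 0.13, adjusted p = 0.46). The groups overlapped for both. The glycosyltransferase AT4G19900 had medians of 7.81 and 6.92 (-0.31 ± 0.14, adjusted p = 0.089). The ribokinase AT1G17160, which phosphorylates ribose, had medians of 6.54 and 5.10 (-0.51 ± 0.22, adjusted p = 0.074). The replicate block made both pass as lower (adjusted p = 0.018 and 0.024), and AT4G17070 too (adjusted p = 0.034), but with averaged sets and the block none of the 3 passed (adjusted p = 0.17, 0.15 and 0.18). AT3G52070 and the RING-domain protein AT1G49850 completed the 10, with log2 changes of -0.22 and -0.33.

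Of 7 proteins of photosynthesis, pigments and thylakoids, 1 fell, the carrier XPT (AT5G17630) above, and 6 did not pass. Over all probes 18.8% were called higher and 15.9% lower. This group and those below are too small for their counts to be read against those shares. The median log2 change of the 7 was 0.04. NADP-malate dehydrogenase (AT5G58330), the valve that exports reducing power from the chloroplast as malate, ran from 3.16 over 4.95 to 8.87 in wild type and from 3.86 over 6.40 to 9.71 in sut2 (0.04 ± 0.20, SE, adjusted p = 0.90). Numbers 1 to 6 gave 0.36 and numbers 7 to 12 gave -0.28. Geranylgeranyl reductase (AT1G74470), which makes the phytyl chain of chlorophyll and tocopherol, had medians of 3.31 and 3.66 (0.00 ± 0.11, adjusted p = 0.98), with 0.25 from numbers 1 to 6 and -0.24 from numbers 7 to 12. For these 2 enzymes the groups overlapped and the numbers 1 to 6 and 7 to 12 pointed in opposite directions.

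AT3G47650 encodes BSD2, a zinc-finger chaperone of Rubisco assembly, and had medians of 5.52 and 7.06 (0.22 ± 0.14 log2, SE, adjusted p = 0.25). The rubredoxin AT1G54500, needed for photosystem II to accumulate, had medians of 2.79 and 3.77 (0.13 ± 0.18, adjusted p = 0.60). FZL, a dynamin-related GTPase that shapes thylakoids, had medians of 3.33 and 2.91 (-0.32 ± 0.25, adjusted p = 0.34). FZL was lower in all 6 sets. Its adjusted p was 0.0042 with the number as a replicate block, and 0.11 with averaged sets paired.

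None of the 6 proteins of RNA binding, organelle gene expression and translation passed, with log2 changes from -0.38 to 0.34. Of all probes, 18.8% were higher and 15.9% lower, and 6 members are too few to tell from these shares. AT3G13150 and AT3G26630 are pentatricopeptide repeat proteins, a class that binds organelle RNA. AT3G13150 had medians of 5.58 and 8.05 (0.24 ± 0.12 log2, SE, adjusted p = 0.14) and passed as higher without normalization (0.50, adjusted p = 0.0013). AT3G26630 had medians of 3.58 and 4.57 (0.15 ± 0.11, adjusted p = 0.29). The mTERF protein AT4G09620, of a family that acts on organelle transcripts, had medians of 1.94 and 2.93 (0.34 ± 0.17, adjusted p = 0.12) and was higher in all 6 sets. The replicate block gave it a limma adjusted p of 0.026, and 0.18 with that block on averaged sets. The class II aminoacyl-tRNA synthetase AT4G33760 (-0.38 ± 0.23) and the RNA-binding protein AT2G37510 (0.10 ± 0.19) were the others, with AT3G09850.

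Of 11 regulators and proteins of signalling and stress, 2 rose (XERICO and chr31) and 2 fell (AT2G46300 and AT3G04210). Of all probes, 18.8% were higher and 15.9% lower. The other 7 had log2 changes from -0.33 to 0.16. AT4G00870, a bHLH factor that represses jasmonate responses, had a narrow range in wild type, 2.84 over 3.15 to 3.8, and 2.30 over 3.01 to 4.33 in sut2 (-0.16 ± 0.09, SE, adjusted p = 0.18). The kelch-repeat F-box protein AT4G39760 (0.11), the receptor-like kinase AT2G39360 (0.16), the PR-1-like protein AT4G31470 (-0.01) and the wound-responsive protein AT4G05070 (-0.12) did not pass, nor did CCL and AT1G49850. For AT2G39360, numbers 1 to 6 gave -0.27 and numbers 7 to 12 gave 0.58.

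Of 3 mitochondrial proteins 1 rose, MICU (AT4G32060) above, beside 18.8% of all probes. AT4G39690, the MIC60 protein of cristae organization, had medians of 2.69 and 3.08 and ranges of 2.25 to 3 and 2.45 to 3.6 (0.13 ± 0.09 log2, SE, adjusted p = 0.25). AT2G04540, the ketoacyl synthase of mitochondrial fatty acid synthesis, had medians of 1.59 and 1.89 (0.38 ± 0.21, adjusted p = 0.16). All 3 changes were above 0, and the 2 last did not pass.

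Of 14 other enzymes and metal-binding proteins, 2 rose (AT3G57630 and AT4G29890) and none fell. Of all probes, 18.8% were higher and 15.9% lower, and 14 members are too few to tell from these shares. The widest spread of all members was that of AT5G64150, a methyltransferase, which ran from 0.0037 over 1.92 to 3.88 in wild type and from 0.169 over 0.435 to 0.937 in sut2. Wild type numbers 3 and 4 were at 0.102 and 0.0037, below every sut2 column, numbers 1 and 2 at 0.619 and 0.859, and the other 8 at 1.73 or more, above every sut2 column. Its log2 change of -0.83 ± 0.76 (SE, adjusted p = 0.42) combined 0.11 from numbers 1 to 6 with -1.77 from numbers 7 to 12, and it passed in the latter alone. The value of 0.0037 lay under the floor of 0.0097 set before the fit, so the size depends on that floor. With a floor of 0.045 its change was -1.02 ± 0.63 (SE, limma adjusted p = 0.22). By its sut2 median it was at rank 181 of the named probes, from 41 in wild type.

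The remaining enzymes did not pass. The protein O-fucosyltransferase-family member AT1G35510 had medians of 4.45 and 5.82 (0.25 ± 0.14 log2, SE, adjusted p = 0.17; 0.041 with the replicate block and 0.26 with that block on averaged sets). The radical SAM protein AT5G63290, related to coproporphyrinogen oxidase, had medians of 4.21 and 3.97 (-0.27 ± 0.12, adjusted p = 0.075). CUTA, a copper-binding protein of the chloroplast, had medians of 2.70 and 2.22 (-0.14 ± 0.17, adjusted p = 0.53), and CYN, the cyanase that breaks down cyanate, 1.73 and 1.95 (0.26 ± 0.16, adjusted p = 0.22). The FAD4-like desaturase AT2G22890 (0.50 ± 0.35), the rhodanese-domain protein AT4G24750 (0.19 ± 0.14) and the photolyase-like protein AT4G25290 (0.10 ± 0.16) did not pass.

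For 19 members no role is stated, although some have a named domain. Of these 2 rose (AT1G13990 and AT3G26580) and 4 fell (AT4G35660, AT1G64430, AT4G16410 and AT1G01730), and the other 13 did not pass. Of all probes, 18.8% were higher and 15.9% lower. The armadillo-repeat protein AT1G51350 had medians of 3.98 and 5.82, with a log2 change of 0.52 ± 0.23 (SE, adjusted p = 0.080), and passed without normalization (0.70, adjusted p = 0.012). AT1G50880 (-0.45 ± 0.23), AT2G33180 (0.38 ± 0.26), AT1G50770 (0.44 ± 0.25) and AT3G06870 (0.45 ± 0.21) passed with the replicate block (adjusted p from 0.0020 to 0.017). AT2G27290, AT3G52070, AT5G46560, AT1G62250, AT2G44760, AT3G61870, AT4G27390 and AT3G44570 had changes from -0.23 to 0.29. With averaged sets and the block none of the 4 passed (adjusted p from 0.069 to 0.14).

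At the lower edge of the list, AT1G01730, AT3G44570 and AT3G26580 were at wild type medians of 1.54, 1.52 and 1.52. Just outside it, AT5G23540, a subunit of the proteasome lid, was at 1.49, THIC, an enzyme of thiamine synthesis, at 1.48 and AT4G21170 at 1.46. The sut2 medians of these 3 were 0.283, 1.45 and 1.16. By the sut2 median 9 members lay outside the first 60 named probes. AT4G33760, AT3G44570 and AT4G05070 were at ranks 61 to 66, and AT1G01730, AT4G35660, AT5G17630, AT3G04210, AT5G64150 and AT1G64430 at ranks 109 to 196. All 60 were above the median probe of the mutant (0.247).

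How the bright probes stood relative to the rest depended on the scaling between columns. The mean of a column was alike in both groups but the median probe was dimmer in sut2, as the median ratio of the deposited medians, sut2 over wild type, was 1.104 over the 60 and 0.828 over all probes. Without normalization the median log2 change was 0.11 over the 60 and -0.24 over all probes, with 10 members higher and 7 lower against 5.03% and 29.5% of all probes. With each column centred on its median it was 0.65 and 0.31, with 41 members higher and 5 lower against 30.6% and 14.7%. After quantile normalization the median of the 60 was 0.05 and that of all probes 0.10. The members' median had an SD of 0.073 over the 12 numbers. This SD is not the spread of the gap between the medians, and consecutive numbers were nearly alike. It therefore cannot decide whether the medians differ. Still with quantile normalization, the median of the 60 was 0.12 against 0.11 over all probes with ceiling values left out. With array weights it was 0.10 against 0.09. The order of the medians changed with the setting, so no standing of the 60 below or above the rest is read from them. The 7 falls and the 7 rises kept their sign under no normalization and median centring, but AT4G16410 and AT1G01730 (-0.30, adjusted p = 0.22) lost the call with median centring, and AT3G57630 and AT3G26580 lost it without normalization.

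**Figure D4:**
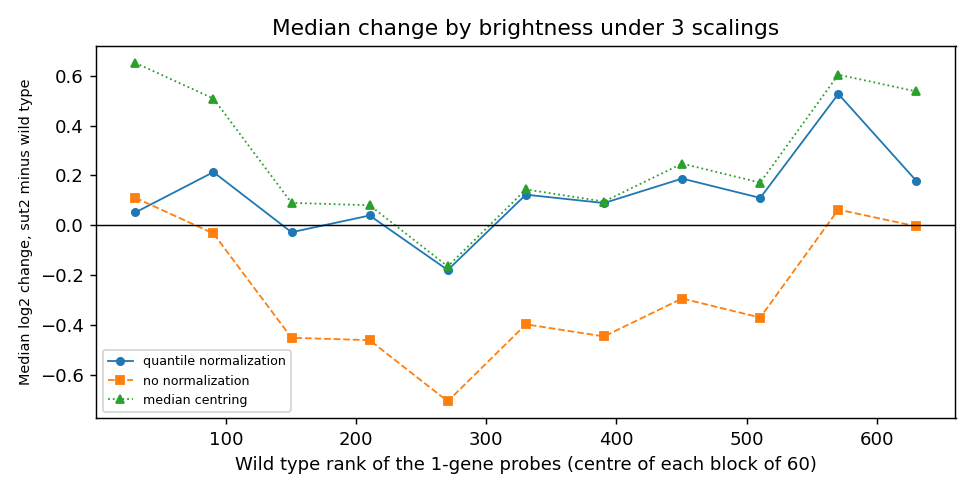
Median log2 change (sut2 minus wild type) in blocks of 60 named probes ordered by wild type brightness, under 3 scalings between columns; the last, incomplete block of 12 is not drawn. The brightest block is at 0.05 after quantile normalization, at 0.65 under median centring and at 0.11 without scaling, and the lines for these last 2 differ by the same 0.54 in every block. In both the 2 brightest blocks stand above the next 3, and so do the 2 dimmest blocks drawn. Without scaling these dimmest blocks are at 0.06 (ranks 541 to 600) and -0.004 (ranks 601 to 660).

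Within a group the 60 had a lower median SD than all probes, most of which were dimmer. Other probes of like brightness were not compared. The median SD of the normalized log2 values over 12 columns was 0.41 in wild type and 0.37 in sut2 for the 60, against 0.57 and 0.53 over all probes. The 46 that did not pass had log2 changes from -0.83 to 0.52 with standard errors from 0.085 to 0.76 (median 0.17), and 43 of them were within 0.5 of 0. In the 2 divisions of the numbers the sign of the change was the same for 42 of the 60 members, and for 71.3% of all probes.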

How the data were processed

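The deposited table held linear intensities of total RNA on arrays, 24 columns mapped to 12 wild type and 12 sut2 samples by their titles. The sources used here do not say how the authors made or scaled these deposited intensities. The column means are near 1 and the highest value is shared at 100, as read from the values. No measure of background was used, so brightness alone is described, and the number of arrays limits the precision.

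Values were floored at 0.0097, the 1st percentile of those above 0, turned to log2 and quantile-normalized between columns. The test was limma 3.58.1 in R 4.3.3 on all 24 columns with group as the term, two-sided, Benjamini-Hochberg adjusted over 3439 probes. It was tried on simulated data of 24 independent columns. Consecutive columns here were nearly alike over the 60 probes. Over all probes their deviations from the group means correlated by 0.12 to 0.55. They were thus not independent, and that trial does not give the error rate of the test in these data. Genes came from GEO's platform annotation, which can be old, with symbols updated through TAIR10.1, where 690 of 692 matched; probe sequences were not used here, so related transcripts read by a probe are not known. No coordinates are given, since the build of the probes is not named. The 60 members were to be named by what they encode, and values given for the 10 brightest, up to 8 rises and 8 falls, the 3 on either side of the edge, and any at the ceiling or at 0. Further members are given values in their groups, chosen after the values were seen. The members and lists were chosen with earlier results of these data known. Function groups were written from names.

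Deviations from the group means of columns with the same number in both groups correlated by 0.14 to 0.40 in all 12 pairs. Columns of different numbers were not compared between the groups, so pairing by number, which the labels do not state, was not tested. Alternatives were other scalings, floors, blocks, averaging, divisions of the numbers and ways to choose the 60.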

Additional observations from a re-analysis of the deposited data

How the results depend on the processing

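The largest changes came from scaling, from what a column is taken to be, and from the columns that choose the list; the cause was not tested. Over all probes, 648 were higher and 548 lower in the fit to 24 columns. This became 173 and 1016 without normalization, 1053 higher with median centring, 297 and 876 with columns centred on their bright probes, 185 and 264 with consecutive numbers averaged, 354 higher with these sets and the replicate block, and 305 and 358 in numbers 1 to 6 alone. Of the 60, 41 were higher with median centring (median log2 change 0.65) and 18 with columns centred on bright probes (0.24), 1 with consecutive numbers averaged, 2 with averaging and the replicate block, and 4 in numbers 1 to 6 alone. The replicate block gave 12 higher and 12 lower, and the division of the numbers as a block 11 and 12. Chosen on the sut2 columns, which favours rises, the 60 gave 16 higher and 2 lower (median 0.17). Chosen on all 24 columns they gave 13 and 2 (0.13). Chosen on wild type numbers 1 to 6 they gave 13 higher in numbers 7 to 12 (0.17), and chosen on numbers 7 to 12 they gave 4 higher and 12 lower in numbers 1 to 6. Median centring adds 0.54 to the log2 change of every probe relative to no normalization. By this shift, which says nothing of single members, 7 that had not passed were called higher against their sign in the fit to 24 columns: CCL (0.54), AT4G19900 (0.42), AT1G49850 (0.44), AT5G63290 (0.41), AT5G46560 (0.63), AT4G00870 (0.48) and AT3G44570 (0.37). The replicate block ended none of the 14 calls and added 10, of which 0 passed when it was fitted to averaged sets (limma adjusted p from 0.069 to 0.26). Of the 14, AT2G46300, AT3G04210, AT5G17630, AT1G64430 and AT4G29890 passed in all 15 alternatives of the fit, and AT4G35660 in 14. The other 8 passed in 8 to 12. The alternatives use the wild type columns that chose the list, so for the falls they are no independent support. Array weights ended 5 of the calls, those of AT4G32060, chr31, AT3G57630, AT1G01730 and AT3G26580.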

Other observations

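Probes whose numbers in the table are next to those of the 60 were not bright as a group. The 79 such probes that are not members themselves had a median of 0.363 over their wild type medians, against 0.36 over all probes.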
